A study of Arabidopsis with 8 samples.

Results

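Expansins are small secreted proteins that loosen plant cell walls at acid pH without cutting wall polymers, and they are needed for much of the expansion of growing cells. Arabidopsis genes of the superfamily fall into alpha-expansins (EXPA), beta-expansins (EXPB), expansin-like A (EXLA) and expansin-like B (EXLB). Wall loosening has been shown for alpha- and beta-expansins, whereas no such activity is established for the expansin-like proteins. In the acid growth scheme, SAUR proteins inhibit PP2C.D phosphatases, the AHA proton pumps of the plasma membrane then stay active, and the acidified wall lets expansins work. The 36 loci described here are the annotated Arabidopsis members, 26 EXPA, 6 EXPB, 3 EXLA and 1 EXLB gene, out of 25397 genes listed in the series. They were chosen by locus identifier and not by their values, with earlier results of these data known.

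The measurements were FPKM values (fragments scaled to transcript length and to the mapped fragments of the library) from RNA of Arabidopsis seedlings at an age of 5 days. The 4 groups were root of the saur41/40/71/72 quadruple mutant, root of the wild-type accession Col-0, shoot of the same mutant and shoot of Col-0, with 2 libraries each. The mutant is mutated in the 4 genes of the SAUR41 subfamily of small auxin up RNA genes, and the labels used here do not give the alleles. The labels do not state whether replicate libraries stem from plants grown separately, and the p-values measure only the spread between these libraries. All values come from whole organs, in which fewer cells of a type and less RNA per cell cannot be told apart.

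A change is the difference of log2(FPKM + 1) between mutant and Col-0, given with its standard error (SE). The added 1 shrinks the changes of weakly expressed genes. They were tested with limma over all 19985 genes that averaged at least 1 FPKM in root or in shoot, with Benjamini-Hochberg adjustment and a threshold of 0.05. The libraries were not alike in the shoot. The median FPKM of listed genes was 5.76 and 5.87 in mutant shoots, against 3.33 and 5.02 in Col-0 shoots, and between 9.74 and 9.80 in all 4 root libraries. Read from the steps between low FPKM values, the depth as a multiple of that in Col-0 replicate 1 of each organ was 1.08 and 1.05 in mutant roots and 0.874 in the other Col-0 root, and 1.19 and 1.22 in mutant shoots and 0.895 in the other Col-0 shoot. Col-0 shoot replicate 1 listed the fewest genes, 21355, where the other 7 libraries listed 21862 to 22858. The median change of all tested genes was 0.31 in shoot and -0.0049 in root. Of the mutated genes, SAUR72 had 16.9 and 16.3 FPKM in mutant roots against 23.4 and 31.6 FPKM in Col-0 roots, and 4.18 and 3.96 FPKM in mutant shoots against 9.41 and 7.57 FPKM in Col-0 shoots. SAUR71 had 3.28 and 3.02 FPKM in mutant shoots against 7.91 and 5.22 FPKM in Col-0 shoots. SAUR41 overlapped between genotypes in both organs, and SAUR40 was at no more than 0.0990 FPKM in any library. Of the 3 mutated genes that could be tested, 0 passed limma. At an unadjusted limma p under 0.05 the mutant was lower for 1 in root and for 2 in shoot. Of all tested genes 1.58% were lower in root and 3.52% in shoot at this threshold. Summed over 10 markers of photosynthetic tissue the shoots held 67914 and 61145 FPKM in the mutant and 78996 and 77847 FPKM in Col-0, while the roots held 192 to 199 FPKM. LHCB1.3, 1 of these markers, had 16938 and 15861 FPKM in mutant shoots, and in Col-0 shoots it is listed at 0 in replicate 1 and at 21258 FPKM in replicate 2. Over the other 9 markers the shoots held 50976 and 45283 FPKM in the mutant and 78996 and 56589 FPKM in Col-0. Summed over 10 markers of root tissue the roots held 273 to 325 FPKM and the shoots 2.88 to 6.62 FPKM, with IRT1 and PLT1 listed at 0 in every shoot library.

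Of the 36 expansin loci, 28 were listed in at least 1 library and 20 in all 8. The 8 that were never listed are EXPA22, EXPA23, EXPA24, EXPA25, EXPA26, EXPB4, EXPB5 and EXPB6. EXPA21 to EXPA26 are immediate neighbours on chromosome 5 in the RefSeq annotation (TAIR10.1), and of this cluster only EXPA21 had any value. EXPB6 is the direct neighbour of EXPB2 on chromosome 1. A further 5 members, EXPA2, EXPA12, EXPA19, EXPA21 and EXPB2, were listed at no more than 0.364 FPKM and were not tested. EXPA2, known for its role in seed germination, had 0.217 and 0.364 FPKM in Col-0 shoots and was not listed in any of the other 6 libraries. EXPA19 is annotated as a transcribed pseudogene. The remaining 23 members passed the filter on low values, 17 EXPA, 2 EXPB, 3 EXLA and the EXLB gene, and 20 of them averaged at least 5 FPKM in root or shoot. EXPA16, EXPA17 and EXPA20 were tested but stayed at or below 4.48 FPKM in every library.

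Most tested expansins differed in level between the organs. In limma, 13 of the 23 tested members were higher in root than in shoot in the mutant and 13 in Col-0, while 7 were lower in root in each genotype. Over all tested genes 58.7% were higher and 17.7% lower in root in the mutant, and 72.1% were higher and 15% lower in Col-0, so that the count on the root side does not set the expansins apart. The median root-minus-shoot difference of all genes was itself 0.81 in the mutant and 1.23 in Col-0. For 8 members the difference had the root direction with and without that median taken off and in both genotypes, for 7 it had the shoot direction, and for 8 it depended on the scaling or the genotype.

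The root side holds the hair-cell expansins. EXPA7 (AT1G12560; chromosome 1, 4276519 to 4277899, TAIR10) and EXPA18 (AT1G62980; chromosome 1, 23331676 to 23333110), both tied to the start of root hair growth, were listed only in root. EXPA7 had 24.3 and 23.8 FPKM in mutant roots and 23.7 and 18.9 FPKM in Col-0 roots, and EXPA18 had 23.2 and 22.96 FPKM in mutant roots and 21.7 and 17.0 FPKM in Col-0 roots. Both were listed at 0 in all 4 shoot libraries, so that no ratio is given. EXPA14 had 21.0 and 23.6 FPKM in mutant roots and 20.7 and 22.8 FPKM in Col-0 roots, against 0.294 and 0.630 FPKM in mutant shoots and 0.928 and 1.27 FPKM in Col-0 shoots. EXPA14 and EXPA17 are known targets of LBD factors in lateral root formation, and EXPA17 reached at most 4.48 FPKM in root and 0.0388 FPKM in shoot. EXPA4 (AT2G39700; chromosome 2, 16543832 to 16545584) was the most abundant expansin of the root, with 109.6 and 118 FPKM in mutant roots and 108 and 142 FPKM in Col-0 roots. Its shoot values were 34.3 and 33.3 FPKM in the mutant and 53.5 and 43.5 FPKM in Col-0. EXPA9 (AT5G02260; chromosome 5, 463158 to 465246) had 53.4 and 62.3 FPKM in mutant roots and 48.3 and 50.2 FPKM in Col-0 roots, against 6.32 and 5.90 FPKM in mutant shoots and 9.74 and 8.92 FPKM in Col-0 shoots. Every root library lay above every shoot library for these 6 genes. The share of all genes that meet this rule was not counted, so that the rule does not set these genes apart.

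EXLA1 and EXLA3 complete the root side. They lie on chromosome 3 with 1 tRNA gene between them in the annotation. EXLA3 (AT3G45960) lies at 16892756 to 16893900 in TAIR10. The interval deposited for EXLA1 (AT3G45970), 16896166 to 16898013, is that of a merged locus shared with a histone H2B gene. EXLA1 had 73.4 and 87.8 FPKM in mutant roots and 91.8 and 62.2 FPKM in Col-0 roots. EXLA3 had 56.0 and 84.1 FPKM in mutant roots and 77.5 and 74.8 FPKM in Col-0 roots. Among expansins EXLA1 ranked 2 in mutant roots and 3 in Col-0 roots, and EXLA3 ranked 4 in both. In Col-0 the root-minus-shoot difference was 3.13 for EXLA1 (SE 0.20, limma adjusted p = 9.18e-06) and 5.26 for EXLA3 (SE 0.23, limma adjusted p = 1.64e-06). The EXLA3 difference was the largest in size of any tested expansin on this scale.

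The shoot side consists of EXPA genes. EXPA5 (AT3G29030; chromosome 3, 11011308 to 11013358), a gene that responds to brassinosteroid and takes part in hypocotyl growth, was close to 0 in root, with 0 and 0.0623 FPKM in the mutant and 0.0327 and 0.187 FPKM in Col-0. It had 28.9 and 27.8 FPKM in mutant shoots and 28.4 and 24.2 FPKM in Col-0 shoots. EXPA1 (AT1G69530; chromosome 1, 26141836 to 26143500), which acts in guard cells during stomatal opening, had 23.2 and 24.001 FPKM in mutant roots and 22.1 and 26.1 FPKM in Col-0 roots, against 95.3 and 83.6 FPKM in mutant shoots and 139.8 and 134 FPKM in Col-0 shoots. EXPA6 had 10.7 and 11.9 FPKM in mutant roots and 11.6 and 13.0 FPKM in Col-0 roots, against 115 and 98.1 FPKM in mutant shoots and 140.0 and 117 FPKM in Col-0 shoots. EXPA1 and EXPA6 were the leading expansins of the shoot in both genotypes. EXPA8 (AT2G40610; chromosome 2, 16948863 to 16950557) had 3.77 and 2.90 FPKM in mutant roots and 3.08 and 2.00 FPKM in Col-0 roots, and its shoot values were 50.3 and 46.5 FPKM in the mutant and 126 and 90.1 FPKM in Col-0. EXPA3 stayed at or below 1.53 FPKM in root and reached 78.1 FPKM in shoot. EXPA10, known for leaf and petiole growth, had 5.29 and 7.05 FPKM in mutant roots and 4.25 and 5.50 FPKM in Col-0 roots, against 27.6 and 25.9 FPKM in mutant shoots and 29.1 and 28.4 FPKM in Col-0 shoots. EXPA16 completes the shoot side.

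For the remaining 8 tested members the direction between organs depended on the scaling or the genotype. This division rests on the sign alone. With the median of all genes taken off, the root-minus-shoot difference in Col-0 was 0.11 for EXPA4 (SE 0.17), placed on the root side. It was -0.11 for EXPA13 (SE 0.13), placed here. EXPB3 (AT4G28250; chromosome 4, 14000038 to 14002069), the main beta-expansin, had 80.3 and 78.2 FPKM in mutant roots and 65.9 and 92.2 FPKM in Col-0 roots, and 72.6 and 63.6 FPKM in mutant shoots and 111 and 72.9 FPKM in Col-0 shoots. EXPB1 had 20.8 and 22.7 FPKM in mutant roots and 17.9 and 18.7 FPKM in Col-0 roots, and 10.8 and 10.3 FPKM in mutant shoots and 16.9 and 13.0 FPKM in Col-0 shoots. They were the only beta-expansins above 1 FPKM. EXPA15 (AT2G03090; chromosome 2, 916854 to 918643) had 51.6 and 56.6 FPKM in mutant roots and 48.9 and 65.6 FPKM in Col-0 roots, and 22.5 and 19.8 FPKM in mutant shoots and 32.5 and 33.0 FPKM in Col-0 shoots. EXPA13 had 21.3 and 21.6 FPKM in mutant roots and 22.4 and 21.3 FPKM in Col-0 roots, and 10.02 and 9.56 FPKM in mutant shoots and 9.33 and 9.78 FPKM in Col-0 shoots. EXPA15 and EXPA13 were higher in every root library than in any shoot library, but no more so than the median gene in Col-0. EXPA11 was nearly even, with 14.1 and 15.1 FPKM in mutant roots and 16.5 and 13.7 FPKM in Col-0 roots, and 12.9 and 11.1 FPKM in mutant shoots and 18.4 and 15.5 FPKM in Col-0 shoots. EXLB1, the sole expansin-like B gene, had 17.9 and 15.6 FPKM in mutant roots and 16.6 and 18.2 FPKM in Col-0 roots, and 8.12 and 6.91 FPKM in mutant shoots and 11.1 and 8.18 FPKM in Col-0 shoots. EXLB1 thus reached a higher level in root than in shoot in all libraries, but no more so than the median gene in Col-0. EXLA2 had 11.3 and 13.6 FPKM in mutant roots and 11.1 and 9.31 FPKM in Col-0 roots, and its shoot values follow with the comparison of genotypes. EXPA20 completes this set and shares a merged locus with a long non-coding RNA gene (AT4G38215). The plot of levels by library shows this division gene by gene.

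**Figure D1:**
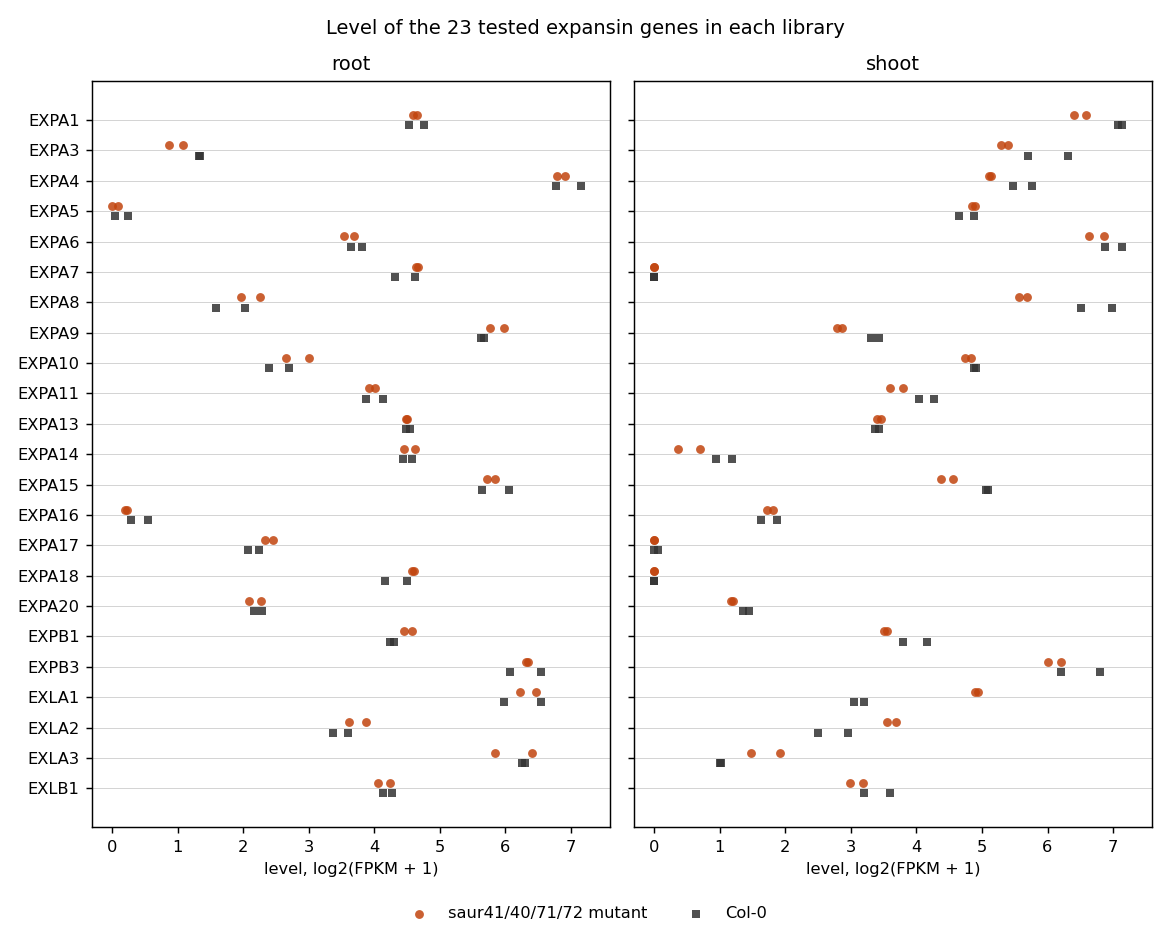
Level of each tested expansin gene on the log2(FPKM + 1) axis in root (left panel) and shoot (right panel), with 1 point per library, mutant libraries as circles above Col-0 libraries as squares. EXPA7 and EXPA18 sit at 0 in shoot, EXPA5 sits near 0 in root, and the mutant and Col-0 points of EXLA1 and EXPA8 stand clear of each other in shoot but not in root.

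In the shoot EXLA1 rose in the mutant and was the one member of 23 that passed limma, higher by 1.78 (SE 0.20, limma adjusted p = 0.0447). Of all tested genes 0.961% were called higher and 0.06% lower in this comparison. EXLA1 had 28.7 and 29.6 FPKM in mutant shoots against 7.32 and 8.24 FPKM in Col-0 shoots, a ratio of means of 3.75, and the libraries did not overlap. Its change lay at the 99.5th percentile of all tested genes. The call held under only 7 of the 20 alternatives, and some of these leave 1 Col-0 shoot library. Leaving out any of the 4 root libraries or either mutant shoot library gave an adjusted p between 0.153 and 0.345 by limma, leaving out Col-0 shoot replicate 1 or 2 gave 0.00406 or 0.000224, settings that called 26% or 66.1% of all genes, and with median-ratio rescaling within the shoot the change was 1.34 (adjusted p = 0.0717). The sign was the same under all 20 alternatives, with a range of 1.32 to 1.90.

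The other EXLA genes lay on the same side without passing. EXLA2 (AT4G38400; chromosome 4, 17978443 to 17979740), whose loss has been tied to resistance against Botrytis, had 10.8 and 11.9 FPKM in mutant shoots against 6.75 and 4.68 FPKM in Col-0 shoots, a change of 0.89 (SE 0.20, limma adjusted p = 0.0663). EXLA3 had 2.77 and 1.79 FPKM in mutant shoots against 1.02 and 1.01 FPKM in Col-0 shoots, a change of 0.69 (SE 0.23, limma adjusted p = 0.0968). The mutant libraries of all 3 EXLA genes lay above the Col-0 libraries without overlap, as did those of 56.8% of all tested genes. After median-ratio rescaling within the shoot EXLA2 overlapped between genotypes, EXLA1 and EXLA3 did not, and the share of all genes above was 30%. In the deposited table EXLA1 shares 1 merged locus with a histone H2B gene (AT3G45980), which had 67.9 and 68.8 FPKM in mutant shoots against 109 and 70.3 FPKM in Col-0 shoots. Reads of overlapping genes may have been shared between them, since the strand setting of the counting is not given in the sources used here.

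Most alpha-expansins were lower in mutant shoots, and none of them passed the test. EXPA8 had 50.3 and 46.5 FPKM in mutant shoots against 126 and 90.1 FPKM in Col-0 shoots, a ratio of means of 0.448 and a change of -1.12 (SE 0.23, limma adjusted p = 0.0609). Its libraries did not overlap, and only 0.035% of all tested genes had a change as low or lower. EXPA1 had 95.3 and 83.6 FPKM in mutant shoots against 139.8 and 134 FPKM in Col-0 shoots, a ratio of 0.653 and a change of -0.61 (SE 0.13, limma adjusted p = 0.0624). The abundant shoot gene EXPA3 (AT2G37640; chromosome 2, 15787705 to 15789853) had 41.3 and 38.2 FPKM in mutant shoots against 78.1 and 51.2 FPKM in Col-0 shoots, a change of -0.66 (SE 0.22, limma adjusted p = 0.0943). Genes with higher levels in root lay lower in mutant shoots as well. EXPA4, EXPA9, EXPA14 and EXPA15 had changes of -0.50, -0.54, -0.53 and -0.61 in shoot, with limma adjusted p-values of 0.0939, 0.0734, 0.0961 and 0.0777. EXPA11 had a change of -0.46 (limma adjusted p = 0.103).

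Not every alpha-expansin followed. EXPA5 and EXPA13 overlapped between the genotypes, with changes of 0.11 and 0.032 and limma adjusted p-values of 0.635 and 0.891. EXPA6 and EXPA10 lay lower in both mutant libraries by a narrow margin, with changes of -0.26 and -0.10 and limma adjusted p-values of 0.225 and 0.718. EXPA6 had the highest mean of all expansins in mutant shoots, and EXPA1 had it in Col-0 shoots. Both beta-expansins lay lower, EXPB1 with a change of -0.46 (limma adjusted p = 0.0995) and EXPB3 with -0.40 (limma adjusted p = 0.236). EXLB1 had a change of -0.31 (limma adjusted p = 0.240), opposite in sign to the EXLA genes. The plot of changes by gene sets these values beside the median of all genes.

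**Figure D2:**
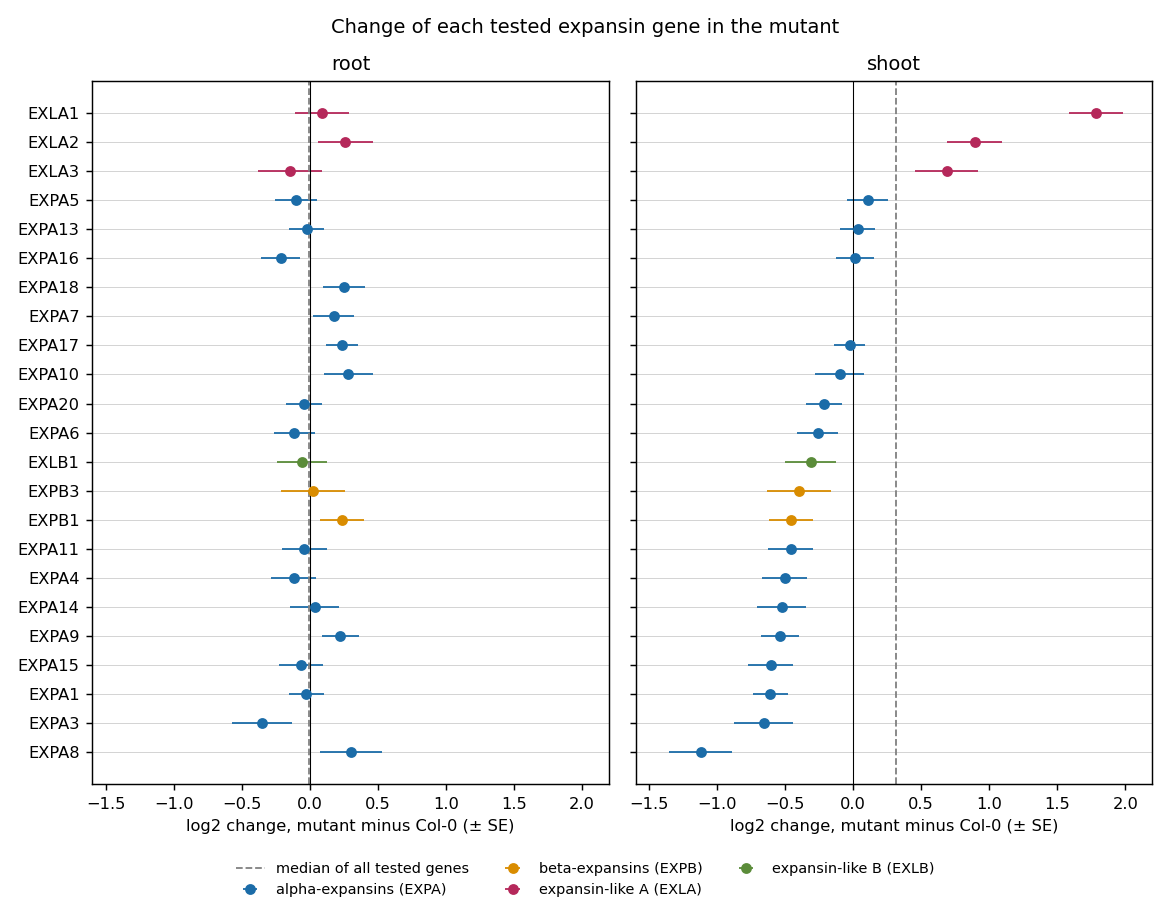
Log2 change, mutant minus Col-0, of each tested expansin gene in root (left panel) and shoot (right panel), with bars of 1 SE and colours for the subfamilies. The dashed line is the median of all tested genes, -0.0049 in root and 0.31 in shoot. EXPA7 and EXPA18, listed at 0 in every shoot library, are left out of the shoot panel, where the 3 EXLA genes stand right of the dashed line and all other expansins left of it.

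Counted over the 23 tested members, both mutant shoot values lay below both Col-0 values for 14 members and above for 3, and 6 overlapped, among them EXPA7 and EXPA18 at 0. Over all tested genes 9.48% lay below and 56.8% above. After median-ratio rescaling within the shoot 16 members lay below and 2 above, against 28.4% and 30% of all genes. At an unadjusted limma p under 0.05 the mutant was lower for 9 members and higher for 3, where 3.52% of all genes were lower and 35.2% higher. The median change of the members was -0.26, with EXPA7 and EXPA18 entering at 0, and that of all genes 0.31. The change in shoot was also related to gene length, with a Spearman correlation of 0.53 across all tested genes, which are not independent and share the same libraries. For the change in root this correlation was 0.40, and for the change in root minus that in shoot it was -0.42. The listed expansin loci span 841 to 2255 bases with a median of 1584, against a median of 2403 bases for all tested genes. For EXLA1 and EXPA20 the span is that of a merged locus, here and in the length trend. With the length trend removed EXLA1 had a change of 1.58 (limma adjusted p = 0.0156) and EXPA8 one of -1.28 (limma adjusted p = 0.0272, with a range of 0.000311 to 0.345 over the alternatives), and 15 members lay below and 3 above, against 29.3% and 29% of all genes.

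**Figure D3:**
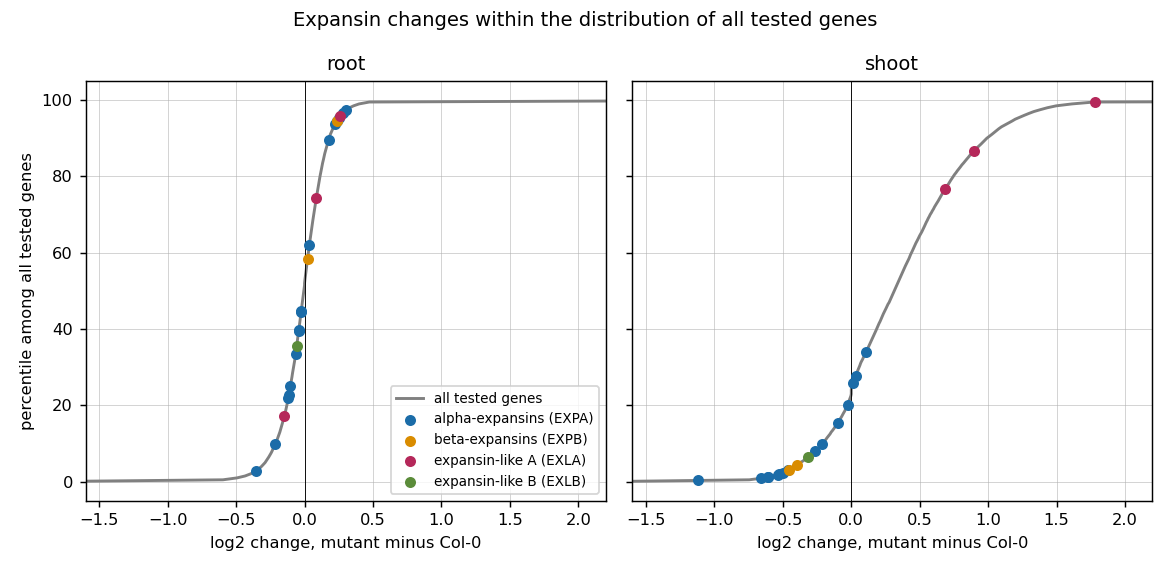
Percentile of each expansin's log2 change (mutant minus Col-0) among all tested genes, in root (left panel) and shoot (right panel), with the grey curve for all genes and coloured points for expansin subfamilies. In shoot EXPA8 lies at 0.035% and EXLA1 at 99.5%, and the members other than the EXLA genes all lie at or below 33.9%, while the root points spread from 2.86% to 97.3%.

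The make-up of the expansin RNA was read from summed FPKM. Over all members the sum was 583 and 528 FPKM in mutant shoots against 824 and 669 FPKM in Col-0 shoots, without overlap. The alpha-expansins contributed 449 and 404 FPKM in mutant shoots against 669.7 and 561 FPKM in Col-0 shoots, a ratio of means of 0.693. The beta-expansins contributed 83.3 and 74.0 FPKM in mutant shoots against 128 and 85.9 FPKM in Col-0 shoots. The EXLA genes contributed 42.3 and 43.3 FPKM in mutant shoots against 15.1 and 13.9 FPKM in Col-0 shoots, a ratio of means of 2.95. They made up 7.25% and 8.20% of the expansin FPKM in mutant shoots, against 1.83% and 2.08% in Col-0 shoots. EXLA1 averaged 29.2 FPKM in mutant shoots and 7.78 FPKM in Col-0 shoots, so that the EXLA sum and share in shoot largely follow this gene. An exact permutation test of 2 against 2 libraries cannot give a two-sided p below 0.333, so that these sums are given without one. In root the EXLA genes made up 22.3% and 26.4% of the expansin FPKM in the mutant, against 28.1% and 21.4% in Col-0. The root sums overlapped, at 630.3 and 702 FPKM in mutant roots and 641 and 683 FPKM in Col-0 roots.

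**Figure D4:**
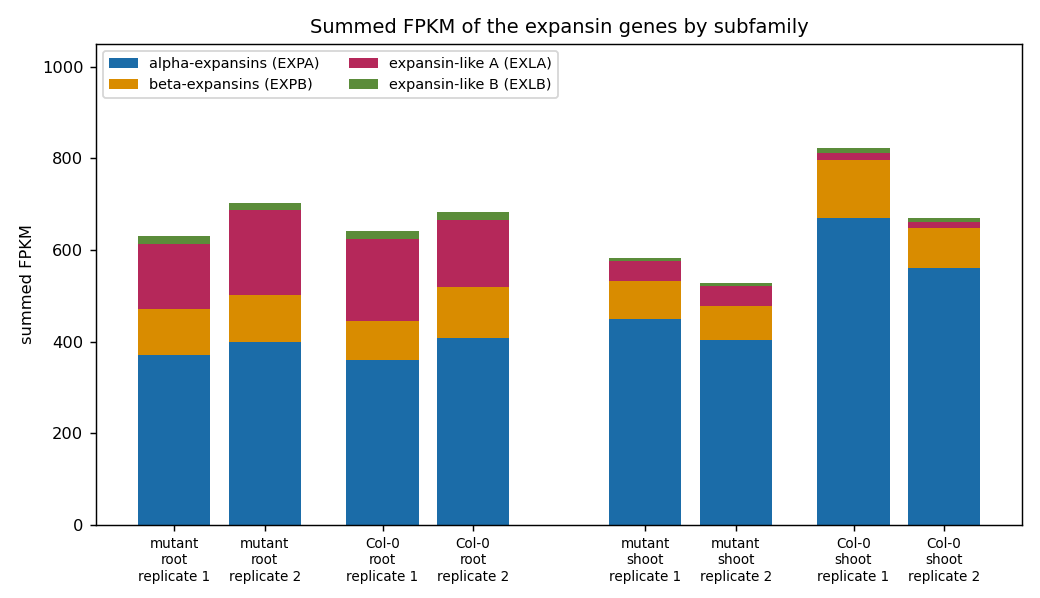
Summed FPKM of the expansin genes in each library, stacked by subfamily, with 2 bars per group. The bars of mutant shoots reach 583 and 528 FPKM against 824 and 669 FPKM for Col-0 shoots, the EXLA layer is thicker in the mutant shoots, and the root bars of the genotypes overlap.

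In the root no expansin passed the test. The limma adjusted p was 1 for all 23 members, and of all tested genes 0.01% were called higher and 0% lower. At an unadjusted p under 0.05, 0 members were called, where 0.991% of all genes were higher and 1.58% lower. The changes ran from -0.35 for EXPA3 to 0.30 for EXPA8, with a median of -0.024 for the members and -0.0049 for all genes. The mutant libraries lay above the Col-0 libraries without overlap for 6 members, EXPA7, EXPA9, EXPA17, EXPA18, EXPB1 and EXLA2, and below them for EXPA3 and EXPA16. Of all tested genes 20.5% lay above and 22.9% below in this way. EXPA9 had 53.4 and 62.3 FPKM in mutant roots against 48.3 and 50.2 FPKM in Col-0 roots, a change of 0.22 (SE 0.14). EXLA2 had 11.3 and 13.6 FPKM in mutant roots against 11.1 and 9.31 FPKM in Col-0 roots, a change of 0.26 (SE 0.20). The hair-cell genes EXPA7 and EXPA18 had changes of 0.18 (SE 0.15) and 0.25 (SE 0.15). EXPA3 had 0.834 and 1.12 FPKM in mutant roots against 1.53 and 1.503 FPKM in Col-0 roots.

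Markers of hair cells lay on the same side as EXPA7 and EXPA18 in root. Summed over 16 root hair genes the roots held 378 and 394 FPKM in the mutant against 323 and 306 FPKM in Col-0, and none of these genes was at 0 in any root library. All 16 had a positive change in root with a median of 0.27, where 47.9% of all tested genes were positive. Of the 16, 0 passed limma, and 3 were higher at an unadjusted p under 0.05, as were 0.991% of all genes. EXT12, a cell wall extensin, had 34.1 and 38.1 FPKM in mutant roots against 24.03 and 22.3 FPKM in Col-0 roots (change 0.62, limma adjusted p = 1), and PRP1, a proline-rich wall protein, had 13.4 and 17.0 FPKM in mutant roots against 13.2 and 8.93 FPKM in Col-0 roots (change 0.44, limma adjusted p = 1). Summed over 4 genes of the non-hair epidermis fate the roots held 41.0 and 43.9 FPKM in the mutant and 43.6 and 43.1 FPKM in Col-0. The 10 markers of root tissue summed to 325 and 302 FPKM in mutant roots against 297 and 273 FPKM in Col-0 roots. Of these 10, 7 had a positive and 3 a negative change in root, with a median of 0.11. A higher sum in mutant roots was thus not limited to the root hair genes. The part of these markers in the values of EXPA7 and EXPA18 was not tested.

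The genotype effect was also set against itself between organs, as the change in root minus the change in shoot. None of the 23 members passed, and 0% of all genes did. At an unadjusted limma p under 0.05 the difference was positive for 4 members and negative for 2, where 1.2% and 14.3% of all genes were. The largest in size were -1.70 for EXLA1 (SE 0.28, limma adjusted p = 0.247) and 1.43 for EXPA8 (SE 0.32, limma adjusted p = 0.263). An effect on EXLA1 that differs between shoot and root is therefore not shown by this test. Without Col-0 shoot replicate 1 the test called 5 members, EXLA1, EXLA2, EXPA8, EXPA9 and EXPB1, and 10.3% of all genes. Without Col-0 shoot replicate 2 it called 10 members, among them EXLA1, EXPA8, EXPA9 and EXPB1, and 57.8% of all genes. With a Col-0 shoot library left out, the other one is assumed to vary like the remaining groups.

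Other genes of acid growth and wall remodelling were read from lists, which were chosen with earlier results of these data known. Xyloglucan endotransglucosylase/hydrolases (XTH), which cut and rejoin xyloglucan, were the list with calls in the shoot. Of 33 XTH loci 26 were tested, and 3 were called higher in mutant shoots and 0 lower. Of all tested genes 0.961% were called higher and 0.06% lower. The XTH calls did not hold everywhere. With each tissue fitted alone, or the replicate number as a block, 0 of all tested genes were called in shoot. The median XTH change of 0.14 was below that of all genes. XTH18 had 40.8 and 65.4 FPKM in mutant shoots against 11.01 and 11.3 FPKM in Col-0 shoots (change 2.12, limma adjusted p = 0.0447). XTH23 had 17.1 and 19.8 FPKM in mutant shoots against 6.14 and 5.70 FPKM in Col-0 shoots (change 1.49, limma adjusted p = 0.0447). XTH24 had 34.3 and 37.7 FPKM in mutant shoots against 19.1 and 16.5 FPKM in Col-0 shoots (change 0.98, limma adjusted p = 0.0466). The mutant libraries of these 3 genes lay above the Col-0 libraries without overlap, as did those of 56.8% of all tested genes. After median-ratio rescaling within the shoot the 3 genes still lay above, where 30% of all genes did. In root 0 of the 26 passed limma, and 2 were higher at an unadjusted p under 0.05, as were 0.991% of all genes. XTH13 had 7.16 and 7.83 FPKM in mutant roots against 5.04 and 4.66 FPKM in Col-0 roots, and XTH12 had 13.8 and 14.5 FPKM in mutant roots against 10.96 and 10.5 FPKM in Col-0 roots, both with a limma adjusted p of 1.

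The pumps and phosphatases that stand before expansins in the acid growth scheme had no member past the threshold in either organ. Of 11 AHA pump genes 8 were tested, with a median change of 0.28 in root and 0.47 in shoot. All 8 were positive in each organ. Of all tested genes 47.9% were positive in root and 75.6% in shoot, with medians of -0.0049 and 0.31. AHA7 had 14.4 and 15.3 FPKM in mutant roots against 10.4 and 11.1 FPKM in Col-0 roots (limma adjusted p = 1), and AHA8 had 5.198 and 6.53 FPKM in mutant roots against 4.69 and 4.02 FPKM in Col-0 roots (limma adjusted p = 1). AHA11 had 36.5 and 35.8 FPKM in mutant shoots against 16.0 and 28.4 FPKM in Col-0 shoots (change 0.73, limma adjusted p = 0.0961), and AHA3 had 79.2 and 75.9 FPKM in mutant shoots against 30.05 and 71.5 FPKM in Col-0 shoots (change 0.73, limma adjusted p = 0.172). In both, the lowest value is that of Col-0 shoot replicate 1. All 9 PP2C.D genes were tested, with a median change of -0.043 in root and 0.50 in shoot. AT3G55050 had 21.8 and 23.6 FPKM in mutant shoots against 7.98 and 12.5 FPKM in Col-0 shoots (change 1.11, limma adjusted p = 0.0575). AT4G33920 had 56.2 and 70.0 FPKM in mutant shoots against 23.6 and 42.6 FPKM in Col-0 shoots (change 0.96, limma adjusted p = 0.0820). In root the largest PP2C.D changes at 5 FPKM or more were -0.14 for AT5G66080 and -0.099 for AT3G55050. In shoot 8 of the 9 PP2C.D genes were positive, the side of the median of all genes, whereas 15 of the 23 tested expansins were negative, 6 were positive and 2 were at 0. At an unadjusted limma p under 0.05 the mutant was higher for 1 AHA gene in root and 3 in shoot, and for 0 PP2C.D genes in root. In shoot it was higher for 6 PP2C.D genes and lower for 1. Of all tested genes 0.991% were higher in root at this threshold, and in shoot 35.2% were higher and 3.52% lower.

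How far each shoot value depends on the processing is shown by its range over the alternatives. The sign of the change was the same under all alternatives for EXLA1, EXLA2 and EXLA3 and for 14 of the 15 members with a negative change, EXPA17 being the exception. EXPA8 ran from -1.65 to -0.88 and EXPA1 from -1.14 to -0.52, EXLA2 ran from 0.44 to 1.12 and EXLA3 from 0.25 to 1.06. EXPA5, EXPA13 and EXPA16 had ranges that included 0. These 3 genes are given without a direction in shoot.

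**Figure D5:**
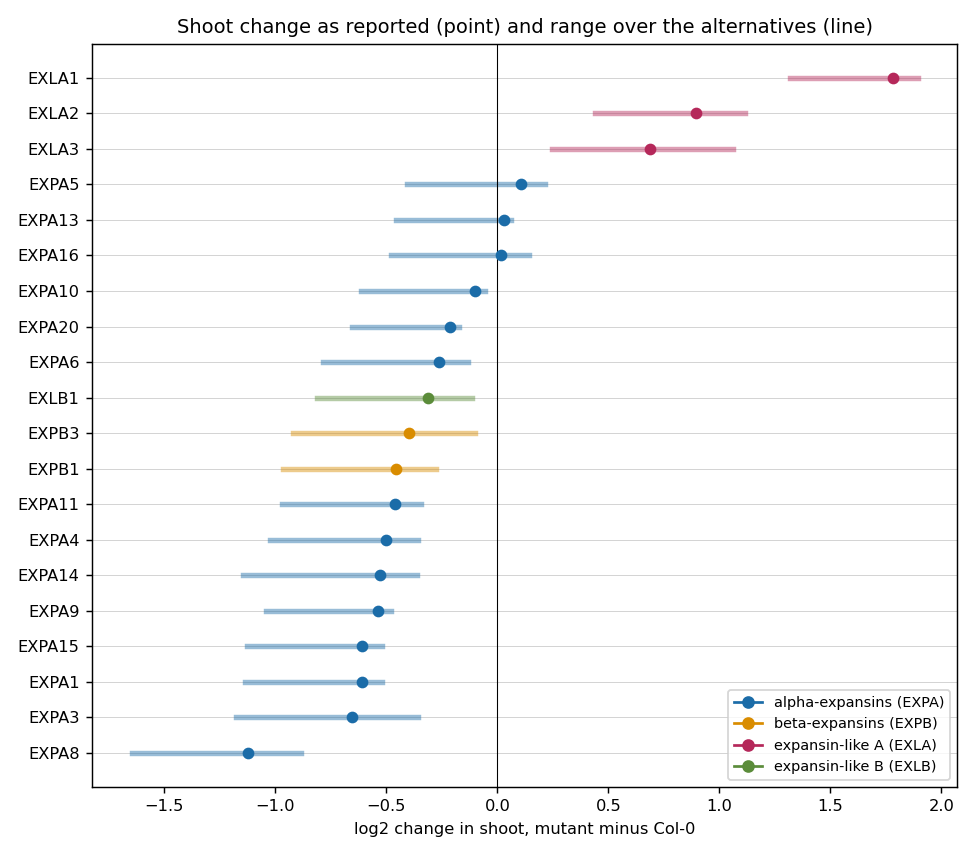
Log2 change in shoot, mutant minus Col-0, of 20 expansin genes, with the reported value as a point and a line from the lowest to the highest value over the alternative settings. The lines of the 3 EXLA genes stay right of 0, those of EXPA5, EXPA13 and EXPA16 cross it, and the lines of the other 14 genes stay left of it.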

How the data were processed

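RNA of 8 libraries (root and shoot, mutant and Col-0, 2 each) was extracted with TRIzol and sequenced on an Illumina HiSeq, per the labels' protocols. The authors deposited 1 table of FPKM values per library, listing genes with FPKM above 0. An absent gene was taken as 0. The build is TAIR10, per the submitters' processing notes. Not given in the sources used here are the aligner, the FPKM program, the strand setting and the absolute read depth, and no counting interval or floor is stated.

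The log2(FPKM + 1) values of all libraries entered 1 limma model of 4 groups (limma 3.58.1, R 4.3.3), with 4 residual degrees of freedom, robust moderation and a mean trend. Genes averaging at least 1 FPKM in root or shoot were tested (19985), with Benjamini-Hochberg adjustment over all of them. The fit was tested on simulated data. Starts in the deposited tables count from 0 and were raised by 1. RefSeq (TAIR10.1) gave symbols, biotypes and neighbours, and all 36 members matched.

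Members averaging 5 FPKM in root or shoot are given by library. From each partner list up to 3 members that passed are named or else the 2 most shifted ones at 5 FPKM or more. Members and lists were chosen with earlier results of these data known. The alternatives were other pseudocounts, filters, scalings, models and a threshold of 0.1, and each library left out in turn.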

Additional observations from a re-analysis of the deposited data

Results flagged for a closer look

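For EXPA9 and EXPB1 the mutant libraries stood above the Col-0 libraries in root and beneath them in shoot, with no overlap. Both genes were picked by this rule. Of all tested genes 20.5% lay above in root and 9.48% below in shoot, and the share with both was not counted. EXPA9 had 53.4 and 62.3 FPKM in mutant roots against 48.3 and 50.2 FPKM in Col-0 roots, and 6.32 and 5.90 FPKM in mutant shoots against 9.74 and 8.92 FPKM in Col-0 shoots. EXPB1 had 20.8 and 22.7 FPKM in mutant roots against 17.9 and 18.7 FPKM in Col-0 roots, and 10.8 and 10.3 FPKM in mutant shoots against 16.9 and 13.0 FPKM in Col-0 shoots. The change in root minus the change in shoot was 0.76 for EXPA9 (limma adjusted p = 0.269) and 0.69 for EXPB1 (limma adjusted p = 0.291), and neither passed the threshold. Leaving out Col-0 shoot replicate 1 or 2 brought both past it, but these settings also called 10.3% or 57.8% of all genes. Over the 19 alternatives the limma adjusted p ran from 0.00102 to 0.611 for EXPA9 and from 0.000366 to 0.611 for EXPB1.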

How the results depend on the processing

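The count of expansins called in shoot, 1 as reported, was 0 with a pseudocount of 0.1, no filter, median-ratio rescaling within each tissue or over all libraries, each tissue fitted alone, moderation without trend, or the replicate number as a block. It was 6 with quantile normalization (1 higher, 5 lower; 2.29% of all genes called), 6 with the gene length trend removed (2 higher, 4 lower; 5.09%) and 11 at a threshold of 0.1 (3 higher, 8 lower; 25.5%). With each library left out in turn it ran from 0 to 14, at 7 without Col-0 shoot replicate 1 (26% of all genes called), 14 without Col-0 shoot replicate 2 (66.1%) and 0 without any other library. A setting chosen after seeing the data, which joins median-ratio rescaling to the loss of Col-0 shoot replicate 1, gave 11 (2 higher, 9 lower; 13.5%) in shoot and 4 for the interaction (2.63%). The interaction, 0 as reported, ran from 0 to 10 with each library left out, where up to 57.8% of all genes were called. The cause of these differences was not tested. Counts in root stayed at 0 under every alternative. Over all genes the shoot calls, 204 as reported, ran from 0 (replicate block, or each tissue alone) to 1017 (length trend removed), and to 5208 or 13209 when Col-0 shoot replicate 1 or 2 was left out.

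Same-numbered libraries had correlated deviations of 0.04 in root and 0.12 in shoot with 2 pairs per organ, too few to show that the numbers pair them. The replicate block changed no other expansin count between genotypes.

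In root, with single libraries left out, the change ran from -0.14 to 0.091 for EXPA1, -0.31 to 0.076 for EXPA4, -0.17 to 0.084 for EXPA11, -0.061 to 0.013 for EXPA13, -0.046 to 0.12 for EXPA14, -0.27 to 0.14 for EXPA15, -0.22 to 0.26 for EXPB3, -0.19 to 0.36 for EXLA1, -0.44 to 0.14 for EXLA3 and -0.15 to 0.036 for EXLB1, so that its sign turned. With the length trend removed it turned for EXPA1 (0.028), EXPA11 (0.035) and EXPA13 (0.027). In shoot EXPA5 turned to -0.35 and EXPA13 to -0.40 with median-ratio rescaling within each tissue, to -0.41 and -0.46 over all libraries, to -0.18 and -0.40 with quantile normalization, to -0.15 and -0.12 with the length trend removed, and to -0.016 and -0.22 in the added setting. With single libraries left out EXPA5 ran from -0.0038 to 0.22 in shoot.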
